A study of Mus musculus with 2 samples.

Results

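Processed pseudogenes listed at a high level were examined in total RNA from the left cerebral cortex of 2 male mice. The members were the genes whose annotated transcripts are all of the type processed pseudogene and whose level was at least 10 TPM (a gene's length-scaled share of the library) in the deposited gene table of both libraries. By that rule 156 of 9940 processed pseudogenes (1.57%) were members, among 55536 genes in all. At the same level there were 8272 genes of any type, of which 7880 were protein-coding. A further 7547 processed pseudogenes had a TPM of 0 in both libraries, and 417, the members included, had at least 1 TPM in both.

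The 2 libraries form 1 group of 2 replicates. The labels give the strain as 5xFAD/CAST and describe the animals as the cross 5xFAD X Cast, adult males of 8 to 10 months, and give the input as 300 ng of RNA per library. Both animals therefore share the 5xFAD background, a model of Alzheimer disease whose transgenes are driven in neurons by the Thy1 promoter. No non-transgenic animals were analysed here, so every value below describes these 2 cortices and carries no p-value. The labels give the samples separate biosamples and the same strain-level donor, and the spread between them may hold technical as well as animal differences.

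A processed pseudogene arises when the reverse transcriptase of a LINE-1 element copies a spliced mRNA back into the genome. The copy lacks the introns of its parent gene and usually its promoter, and it then gathers mutations freely. Abundant housekeeping mRNAs, above all those of ribosomal proteins, have left many such copies in mammalian genomes. A young copy differs from its parent at few bases, so a short read can match both equally well and the quantification program has to divide it. The 2 quantifications deposited for each library divide such reads by separate routes: a gene table in RSEM format, made from alignments to the transcriptome, and a transcript table in kallisto format, made from the reads themselves and summed here per gene.

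The libraries held 34101499 and 32543032 expected counts in the gene tables and 36964091 and 36821799 estimated counts in the kallisto-format tables. Markers of cortical cell types were present: all 5 markers of excitatory neurons, 5 of inhibitory neurons, 4 of astrocytes, 4 of oligodendrocytes and 4 of microglia were at 1 TPM or more in both libraries. Of 5 choroid plexus markers 4 were too. The choroid plexus markers had medians of 4.74 and 1.65 TPM, but their means over the libraries ran from 2.415 to 317.9 TPM. The 3 blood markers had medians of 78.5 and 96.7 TPM. The part of these cell types in the pseudogene values was not tested.

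Sequence first shows what the members are. A parent was taken as the protein-coding gene of the best same-strand match of at least 80% identity over at least 50% of the pseudogene, and 154 of the 156 members had one, 128 parents in all. The median identity with the parent was 99.6%, against 91.2% for the 7446 of 9784 other processed pseudogenes that had a parent. In 115 members (74.7%) identity was at least 99%, against 421 others (5.65%), and 43 members were identical to their parent over the aligned stretch. Members were about as long as the rest, with a median of 482.5 bases (111 to 2406) against 528. The longest stretch free of stop codons reached at least 90% of the length of the parent's coding sequence in 116 of 154 members (75.3%) and in 18.02% of the others. The members are thus mostly near-perfect copies, and most have a stop-free stretch near the length of the parent's coding sequence, which need not be in the parent's frame.

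**Figure D1:**
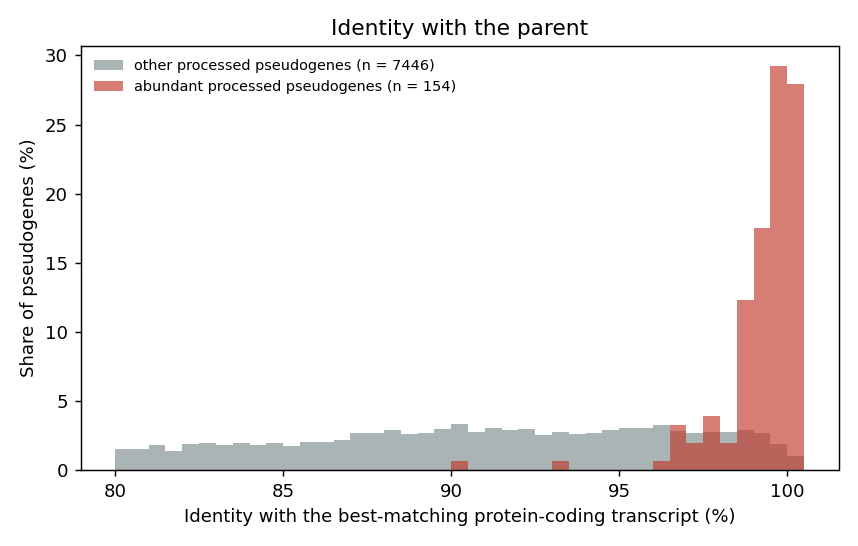
Identity with the best-matching protein-coding transcript (x axis, %) as a share of pseudogenes (y axis, %), for the 154 abundant processed pseudogenes with a parent and the 7446 others with one. The members pile up above 99%, where 74.7% of them lie, while the others spread over the range from 80% upward.

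Stretches of 100 bases from members that the tables treat in different ways show how little there is to tell copy and parent apart; all lie within the parent's coding sequence, and capitals mark the bases that differ between the 2 sequences of a pair. Sequences are from the GENCODE M21 transcripts (mm10), 5′ to 3′. The first is Gm47441, at chr12:23903253-23903369 on the plus strand, shown whole because it had the highest mean TPM: its 117 bases are those of coding positions 1 to 117 of Tecr, with no difference, so it holds no capitals. The pairs that follow are Atp6v0c-ps2 (chr6:37806146-37806245, plus strand) with Atp6v0c, which the kallisto-format table listed at 0; Rpl35a-ps6 (chr5:123255609-123255708, minus strand) with Rpl35a, which stands for 5 members of identical sequence; and Gm12070 (chr11:26786943-26787042, plus strand) with Gapdh, and Oaz1-ps (chr17:17345967-17346066, minus strand) with Oaz1, which differed between the tables in opposite directions; these stretches, and those of Rps15-ps2 below, were picked after the values were seen.
Gm47441: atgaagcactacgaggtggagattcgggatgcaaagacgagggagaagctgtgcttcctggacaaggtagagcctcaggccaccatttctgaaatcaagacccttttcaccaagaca
Atp6v0c-ps2: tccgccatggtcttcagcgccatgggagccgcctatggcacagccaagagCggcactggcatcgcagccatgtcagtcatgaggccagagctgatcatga
Atp6v0c: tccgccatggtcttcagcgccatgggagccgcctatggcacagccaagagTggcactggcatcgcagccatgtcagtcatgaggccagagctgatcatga
Rpl35a-ps6: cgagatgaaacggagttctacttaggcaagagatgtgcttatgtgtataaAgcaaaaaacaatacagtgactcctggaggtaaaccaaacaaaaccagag
Rpl35a: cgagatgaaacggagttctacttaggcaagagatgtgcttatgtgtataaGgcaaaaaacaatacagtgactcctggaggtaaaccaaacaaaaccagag
Gm12070: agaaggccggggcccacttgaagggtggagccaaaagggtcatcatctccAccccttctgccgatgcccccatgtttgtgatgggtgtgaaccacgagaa
Gapdh: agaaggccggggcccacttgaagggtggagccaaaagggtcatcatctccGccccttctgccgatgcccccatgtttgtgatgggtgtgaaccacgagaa
Oaz1-ps: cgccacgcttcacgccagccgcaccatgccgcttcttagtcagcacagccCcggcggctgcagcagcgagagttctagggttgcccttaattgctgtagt
Oaz1: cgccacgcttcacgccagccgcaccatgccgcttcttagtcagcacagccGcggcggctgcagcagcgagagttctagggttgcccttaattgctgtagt

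Written with the parent's base first, its position counted from 1 at the first coding base, and the pseudogene's base last, the differences shown are T111C in Atp6v0c-ps2, G156A in Rpl35a-ps6, G361A in Gm12070 and G125C in Oaz1-ps. Over their whole alignments Atp6v0c-ps2, Rpl35a-ps6 and Gm12070 have 1 mismatch each and no gap, and Oaz1-ps has 1 mismatch and 1 gap. In these reference sequences, a read of 100 bases that does not cross such a position is the same in the pseudogene and the parent. The animals are from a cross with Cast. Variants of that strain were not examined, here or in the identities and shared windows.

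A pair of more divergent copies has more positions at which reads can be assigned. Rps15-ps2 (chr6:58017654-58017753, plus strand) has 10 mismatches with Rps15, 6 of them in the stretch shown, and Gm6548 (chr17:78850906-78851005, minus strand) has 36 mismatches and 3 gaps with Eef1a1, 9 of the mismatches in the stretch shown.
Rps15-ps2: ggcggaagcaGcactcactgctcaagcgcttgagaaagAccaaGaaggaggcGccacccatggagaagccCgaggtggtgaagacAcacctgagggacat
Rps15: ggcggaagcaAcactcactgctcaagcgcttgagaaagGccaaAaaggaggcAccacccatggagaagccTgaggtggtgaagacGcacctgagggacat
Gm6548: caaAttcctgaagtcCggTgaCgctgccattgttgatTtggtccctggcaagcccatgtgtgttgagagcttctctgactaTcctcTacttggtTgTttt
Eef1a1: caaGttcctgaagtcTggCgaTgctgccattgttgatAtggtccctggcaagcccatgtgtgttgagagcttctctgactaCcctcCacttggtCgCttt

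Counted over whole sequences, the median member shared 78.6% of its 100-base windows exactly with a transcript of another gene, against 0% for the other processed pseudogenes. Every window was shared in 51 members (32.7%) and in 260 of 9748 others (2.67%). Only 3 members, Gm6548, Gm10060 and AC134576.3, shared none, while 70.2% of the others shared none. A set of 9 members were identical to at least 1 other member: 5 copies of Rpl35a (Gm10243, Rpl35a-ps2, Rpl35a-ps3, Rpl35a-ps4 and Rpl35a-ps6), the Rpl21 copies Gm10240 and Gm13370, and the Rpl27 copies Gm11518 and Rpl27-ps3.

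In the gene tables the members spanned 10.07 to 380.3 TPM in replicate 1 and 10.3 to 457 TPM in replicate 2, with medians of 28.9 and 28.0. They drew 0.291% and 0.281% of all expected counts, which was 80.2% and 78.6% of the counts of all processed pseudogenes. The median member rested on 307 and 286 expected counts, against 1674 and 1631 for protein-coding genes at the same level. The values of most members thus rest on fewer reads than those of protein-coding genes of like TPM.

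By the role of the parent, the 54 copies of cytosolic ribosomal protein genes, the structural proteins of the ribosome, formed the largest named group: 34.6% of members against 18.4% of the other processed pseudogenes. A role needs a parent, and 1.28% of members but 23.9% of the others had no parent. The 2 shares are therefore not on a like base, and the contrast is smaller among pseudogenes with a parent. They came from 37 parents and ran from 13.2 to 382 TPM with a median of 51.5. Rps23-ps1 was the highest at 380.3 and 383 TPM (382 ± 1.74, mean ± SD, n = 2), identical to the parent Rps23 over its length. Rpl28-ps1 had 191 and 208 TPM, Gm7536, a copy of Rpl27a, 185 and 198, Rpl31-ps8 181 and 195, and Rps2-ps13 200.1 and 174. For each of these the 2 animals lay within 30 TPM of each other.

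Copies of energy metabolism genes came next. Of 9 copies of mitochondrial respiration genes, Gm12338, derived from the cytochrome c oxidase subunit gene Cox7c, stood highest at 362 and 388 TPM (375 ± 18.7), and the median of the 9 was 57.4. The 5 copies of glycolysis genes had a median of 17.7 TPM and held 2 copies of Gapdh, the gene of a glycolytic dehydrogenase which has many processed pseudogenes in the mouse. Gm12070 had 28.0 and 23.7 TPM and Gm7336 11.3 and 14.5.

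Chaperones and cyclophilins gave 6 members with a median of 56.0 TPM. Gm10123, a copy of the cyclophilin A gene Ppia, had 351 and 384 TPM (367 ± 23.2), and Gm15459, a 1941-base copy of the constitutive heat shock gene Hspa8, had 199 and 205 TPM (202 ± 4.24). The Hspa8 copy also carried the most reads of any member, 9168 and 8432 expected counts. There were further 8 copies of chromatin and nuclear RNA protein genes, 5 of cytoskeletal genes, 5 of ubiquitin and proteasome genes, 4 of translation factor genes and 58 of genes outside these groups. Among these 58, Gm47441 had 353 and 457 TPM (405 ± 73.9), and Atp6v0c-ps2, a copy of a proton pump subunit gene of the vesicular ATPase, 189 and 208 TPM (198 ± 13.4).

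Gm47441 ranked first by mean TPM, through replicate 2, on few reads; in replicate 1 it lay below Rps23-ps1 and Gm12338. It rested on 149.7 and 173 expected counts, against 3087 and 2774 for Rps23-ps1 at a similar TPM. The gene tables divide by an effective length that is the length minus 100 bases, which leaves few bases of a 117-base gene. Divided by full lengths instead, Gm47441 had 62.6 and 80.2 TPM, and the summed TPM of the 11 members under 200 bases was 458 in place of 1152 in replicate 1 and 549 in place of 1393 in replicate 2. Of all 156 members, 148 were at 10 TPM or more in both libraries on full lengths.

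The kallisto-format tables gave lower totals for the members, while for processed pseudogenes as a whole the direction depended on the measure. Summed over members, TPM was 8475 and 8903 in the gene tables and 4281 and 4507 in the kallisto-format tables, and the members' share of all reads was 0.198% in both libraries of the latter. All processed pseudogenes together took 0.362% and 0.357% of expected counts and 0.366% and 0.436% of estimated counts. Their summed TPM was 10066 and 10651 in the gene tables and 7283 and 9107 in the kallisto-format tables. Of the estimated counts, 14618 and 35108 belonged to Gm19220 alone, which had 0 expected counts in both libraries. Ratios between the tables were taken as log2 with a pseudocount of 0.1 TPM and centred in each library on the median of the 8269 genes at 10 TPM or more that both tables held. By at least 2-fold in both libraries, 63 members (40.4%) were lower in the kallisto-format table and 3 (1.92%) were higher; the background was 2.19% lower and 0.266% higher over all 8269 genes, and 0.19% in each direction over 7877 protein-coding genes. A further 64 members lay within 2-fold in both libraries, and 26 were past 2-fold in 1 library only. The median log2 ratio of the members was −1.61 in replicate 1 and −0.64 in replicate 2.

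**Figure D2:**
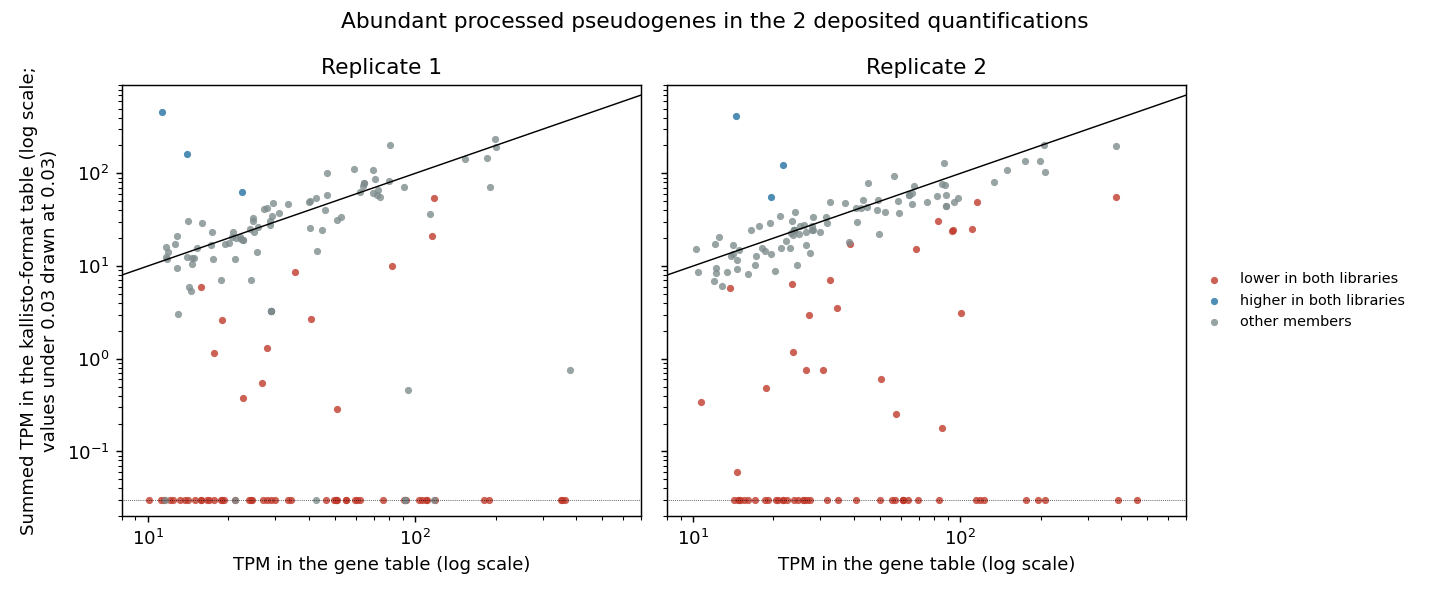
Summed TPM in the kallisto-format table (y axis, log scale, values under 0.03 drawn at 0.03) against TPM in the gene table (x axis, log scale) for the 156 members, 1 panel per library; the line marks equal TPM. The 63 members lower in both libraries are red, the 3 higher in both are blue, and the row of points at the bottom holds members listed at or near 0.

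The choice of members leans on 1 of the 2 tables, and the lean reverses with the choice. The rule asked for a high value in the gene table only, so a lower value in the other table is partly fixed by it. When processed pseudogenes were chosen by at least 10 TPM in both kallisto-format tables instead, 95 qualified, and 24 of these were higher and 2 lower in the kallisto-format table, with a median log2 ratio of 0.19. The 2 lists shared 70 genes, 44.9% of the members and 73.7% of the other list. The disagreement thus runs both ways: each table names abundant pseudogenes that the other puts low.

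Many of the lower members had no reads in the kallisto-format table. Fewer than 3 estimated counts in both libraries were listed for 43 members, 37 of them at exactly 0 in both, while the same held for 5 of 7877 protein-coding genes and 142 of all 8269 genes at that level. A count of 3 corresponds to 0.0492 to 2.21 TPM in replicate 1 and 0.0464 to 3.85 in replicate 2, depending on length, so the limit that a count of 0 allows is below the 10 TPM of the rule for each member. These limits cover counting error only. Among the 10 highest members, Gm47441, Gm12338, Atp6v0c-ps2 and Rpl31-ps8 were listed at 0 in both libraries. Gm15459 was alike in both tables, at 236 and 203 TPM in the kallisto-format table, and so were Rps2-ps13 at 191 and 136 and Gm7536 at 148 and 136.

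The 5 lowest ratios belonged to Gm47441, Gm12338, Atp6v0c-ps2, Rpl31-ps8 and Gm14303, all listed at 0 in the kallisto-format tables, so that their order only repeats their TPM in the gene tables. Gm14303, a 171-base copy of Rps29, had 111 and 176 TPM from 196 and 278 expected counts and was listed at 0 in the other table. The highest ratios belonged to Gm7336, Oaz1-ps, Gm15920, Gm4202 and Gm14044. Gm7336, which shares 99.7% of its windows, had 11.3 and 14.5 TPM in the gene tables and 464 and 418 in the kallisto-format tables. Gm12070, the other Gapdh copy, went the opposite way, from 28.0 and 23.7 TPM to 1.32 and 1.20. Oaz1-ps, a copy of the ornithine decarboxylase antizyme gene, had 14.0 and 21.6 TPM against 161 and 122, and Gm15920, a copy of the complex I gene Ndufa12, 22.6 and 19.5 against 62.98 and 55.6. Near-identical copies of a single parent were thus placed far apart by the 2 routes, and in both directions.

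Short members were mostly lower in the kallisto-format table, as were other short genes, few of them protein-coding. All 11 members under 200 bases were lower by at least 2-fold in both libraries and had fewer than 3 estimated counts in both, although the gene tables gave them 8.97 to 832 expected counts in replicate 1 and 7.77 to 797 in replicate 2. Of 21 members under 300 bases 19 were lower, of 77 members from 300 to under 600 bases 30 were lower, and of 58 members of 600 bases or more 14 were lower. Over all genes of the same length at 10 TPM or more, members included, the shares were 91.9%, 15.3% and 0.33%. Below 300 bases the members' share was therefore that of genes of their length: 94 of 102 genes that are no members were lower there, against 12 of 197 and 12 of 7814 in the longer classes. The median log2 ratios of the members in the length classes were −8.76, −1.56 and −0.33. These medians take values at 0 with the pseudocount, and so are no measure of fold. In the kallisto-format tables the effective length of long genes differed from the length by −260 bases in replicate 1 and −225 in replicate 2. TPM of short genes therefore rest on unlike length scales in the 2 tables. The part of this in the ratios was not tested.

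**Figure D3:**
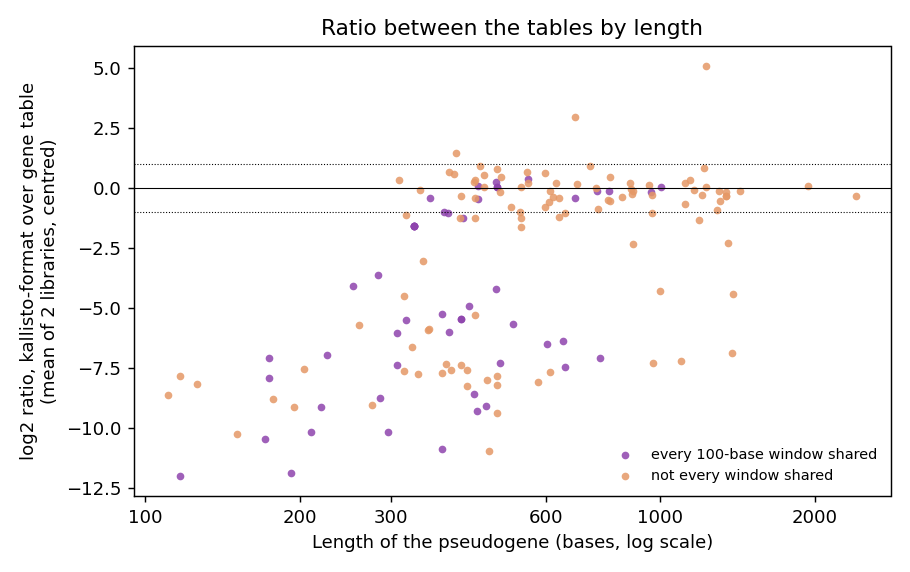
The log2 ratio of kallisto-format over gene-table TPM (y axis, mean of 2 libraries, centred, pseudocount 0.1) against the length of the pseudogene (x axis, bases, log scale), 1 point per member; dotted lines mark 2-fold. Of 21 members under 300 bases 19 lie below −1 in both libraries, while most of those of 600 bases or more lie between the dotted lines.

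Classes by shared windows lay closer together than classes by length. Among the 51 members with every window shared, 24 (47.1%) were lower, and among the 68 with 50% or more but not all shared, 30 (44.1%) were lower and 3 higher. Of 32 members with over 5% and under 50% shared, 7 (21.9%) were lower. Of the 5 with at most 5%, 2 were lower. Among the 43 members identical to their parent, 27 (62.8%) were lower. Crossed with length, the counts lower were 10 of 12 fully shared and 9 of 9 other members under 300 bases, 10 of 30 and 20 of 47 from 300 to under 600 bases, and 4 of 9 and 10 of 49 at 600 bases or more. The share lower thus went down with length among members not fully shared, and full sharing had no constant direction within a length class. These are counts with no test of either feature.

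The 5 members with at most 5% shared windows are those in which reads of 100 bases could be told apart best. Shorter windows were shared more often. Gm10060 has only 12 windows of 100 bases, and 61.3% of its 50-base and 35.1% of its 75-base windows were shared. For Gm6548 these shares were 24.1% and 6.97%. Gm6548, the copy of the elongation factor gene Eef1a1 shown above, had 25.7 and 27.8 TPM in the gene tables and 26.4 and 24.4 in the kallisto-format tables, from 685 and 661 expected and 678 and 680.01 estimated counts. Gm13050, a copy of the elongation factor gene Eef2, had 19.5 and 21.4 TPM against 17.4 and 15.7. Gm11478 had 12.8 and 10.3 TPM against 21.3 and 15.3. Both tables therefore placed these 3 at similar levels. Gm10060, a 111-base copy of Nsfl1c, had 46.5 and 31.7 TPM from 12.8 and 7.77 reads and was listed at 0 in the other table. AC134576.3, a copy of the glutamine synthetase gene Glul with 93.0% identity at chr18:38359441-38360538, had 373 and 317 expected counts (14.98 and 14.3 TPM) and was also listed at 0. With 1098 bases and no shared window, it was the 1 member of these 5 that was listed at 0 without being short.

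Members without a parent were 2. Pabpc1l2b-ps had 42.4 and 40.7 TPM, from 625 and 535 expected counts, and 53.9 and 42.8 TPM in the kallisto-format table. Gm43580 had 11.6 and 18.7 TPM, against 0 and 14.4. Of the 45 members named as a pseudogene of a gene, 41 had that gene as their parent here, and Glns-ps1, Eif4a-ps4 and Amd-ps3 matched Glul, Eif4a1 and Amd1.

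Sums over a parent and its copies differed far less between the tables than the summed members did, and slightly less than the parents did. The 128 parents were compared with their members and with the sum of the parent and all processed pseudogenes assigned to it, 2186 in all. The median log2 ratio between the tables was 0.18 for the parents, −1.14 for the summed members and −0.04 for the family sums. The median absolute log2 ratio was 0.23, 1.23 and 0.19 in the same order. Members made up a median of 32.7% of the family sum in the gene tables, so the sums are not independent of the parents. Within 2-fold in both libraries were 110 parents, 55 of the summed members and 121 of the family sums. By at least 2-fold in both libraries 10 parents were higher in the kallisto-format table and 0 lower, beside 0.19% of protein-coding genes at 10 TPM or more in each direction; of the family sums 4 were lower and 0 higher. The 4 were the families of Tecr, Snrpf, Dnajc9 and BC004004, named after their values were seen. The match of Gm10095 to BC004004 covered 0% of that gene's coding sequence, so the best match need not be the gene it was copied from. In all, 15 members covered under 50% of their parent's coding sequence. Of the 10 parents, Gm45713 passed through the pseudocount alone, with 0 TPM in both gene tables and 0.14 and 0.31 in the other. Mrpl23 (1.49 and 3.69 TPM), Snrpf (5.01 and 5.46) and Hist2h2aa1 (11.2 and 2.97) were also not at 10 TPM in both gene tables. These parents and Gm45713 thus lie outside the genes of that background.

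**Figure D4:**
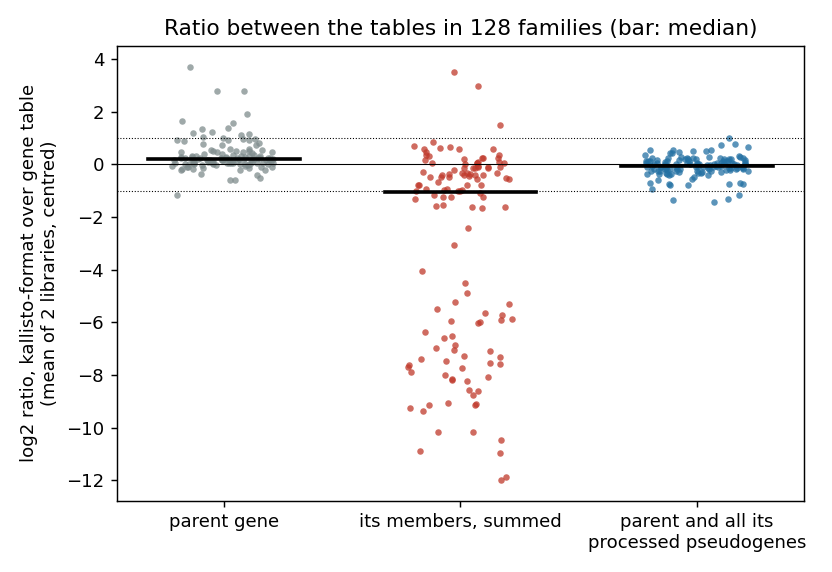
The log2 ratio of kallisto-format over gene-table TPM (y axis, mean of 2 libraries, centred, pseudocount 0.1) for 128 families: the parent gene, its summed members, and the parent with all its processed pseudogenes. Bars mark medians and dotted lines 2-fold; the family sums lie closest to 0, with 121 of 128 within 2-fold in both libraries.

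The Rpl27 family, chosen after its values were seen, shows such a shift, in full in replicate 1 only. Rpl27, the gene of a large-subunit ribosomal protein, had 16.6 and 19.5 TPM in the gene tables, and its identical copies Rpl27-ps3 and Gm11518 had 91.4 and 88.4 TPM each. In the kallisto-format tables Rpl27 had 169 and 92.0 TPM, and the copies had 0 in replicate 1 and 44.1 each in replicate 2. The family sums were 200.3 and 197 TPM in the gene tables and 171 and 181 in the other. The sum stayed within 2-fold in both libraries. Parent and copies changed places in replicate 1, while in replicate 2 the kallisto-format table put Rpl27 at 92.0 TPM and its copies together at 88.3.

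Other families differed in several ways. Rps23 had 121 and 118 TPM in the gene tables, below its copy, and 420 and 240 TPM in the kallisto-format tables, where Rps23-ps1 had 0.76 and 196 TPM. Mrpl23, a mitochondrial ribosomal protein gene also chosen after its values were seen, had 1.49 and 3.69 TPM against 32.9 and 31.8, while Mrpl23-ps1 had 26.9 and 26.8 against 0 and 0. In these 2 families too the parent was higher and the copy lower in the kallisto-format tables. Oaz1 went the other way, with 241 and 221 TPM against 177 and 137 while Oaz1-ps was higher, and so did Rpl36, named after its values were seen, with 184 and 202 TPM against 76.9 and 98.8 and its copy Rpl36-ps12 at 29.4 and 24.1 against 48.3 and 38.4. In the Rpl35a family the parent had 166 and 175 TPM against 278 and 200.3, and its 5 members together 144 and 119.5 (each 28.9 and 23.9) against 16.3 and 121, so that the members were lower in replicate 1 and about level in replicate 2. The Rpl21 family gave its parent 102 and 94.0 TPM against 223 and 170, and its 3 members, Gm10163, Gm13370 and Gm10240, together 223 and 223 against 156 and 166; of these, the identical Gm13370 and Gm10240 each had 64.6 and 64.1 against 77.9 and 58.6. Of the 3 members from Morf4l1, a chromatin reader gene, Morf4l1-ps1 had 75.7 and 100.4 TPM against 0 and 3.10, Gm5564 21.2 and 20.3 against 11.9 and 8.78, and Gm5539 14.0 and 12.2 against 12.5 and 9.47.

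Tecr and Cox7c are families in which the sum did not hold. The parent, a gene of very-long-chain fatty acid synthesis, had 282 and 297 TPM in the gene tables and 323 and 298 in the kallisto-format tables. With Gm47441 the family sum was 635 and 754 TPM against 323 and 298. The 117-base copy made up 353 and 457 TPM of the first sum and 0 of the second. Cox7c had 160 and 164 TPM against 303 and 258, and with its copy Gm12338 the family sum was 522 and 552 TPM against 303 and 258, log2 −0.96 as the mean of both libraries.

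Above their own parent in both libraries stood 22 members by the gene tables, against 3 (Gm6682, Gm11478 and Gm7334) by the kallisto-format tables. The median member had 39.7% of its parent's TPM. Members took over 50% of the family sum in 26 of 128 families in the gene tables and in 4 in the kallisto-format tables. The median shares were 32.7% and 13.2%. The rule chose members by the gene tables, so their higher ranks and shares there are partly fixed by it. These counts were not redone for the list chosen by the kallisto-format tables.

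The deposited credibility intervals of the gene tables, whose level is not in the file headers, were wider for members than for protein-coding genes at 10 TPM or more. The ratio of the upper to the lower bound had a median of 1.43 and 1.48 in members and of 1.17 and 1.17 in the 7880 protein-coding genes. It was over 2 in 32 and 31 members and in 13 and 16 of the protein-coding genes. Identical copies had equal TPM and wide intervals: each Rpl35a copy was put at 28.9 TPM in replicate 1, where Rpl35a-ps6 had bounds of 0.0132 and 90.9 TPM, and Gm13370, at 64.6 TPM, had bounds of 1.36 and 144. Reads cannot tell identical copies apart, so these values do not measure each copy. In both libraries 115 members had a lower bound of at least 10 TPM.

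Between the animals no member was called apart by the gene tables. In bulk tissue, fewer cells of a type and less RNA per cell cannot be told apart. Differences were log2 ratios of replicate 2 over replicate 1 of expected counts scaled by TMM, called at 2-fold or more with at least 10 reads in 1 library and a Clopper-Pearson interval, at an error level of 0.1%, that left out equal levels. Of the 155 members tested, 0 were called in either direction, and Gm14287 had too few reads. The background over 19484 genes was 0.57% higher in replicate 2 and 0.647% higher in replicate 1. Shares this low would give few calls among 155 members, so the 0 does not set the members apart. The median absolute log2 ratio was 0.17 in members, 0.13 over all genes tested and 0.07 in protein-coding genes at 10 TPM or more. By this measure the members were less even than either. The median member rested on fewer reads than the median protein-coding gene at that level, and the groups were not matched for reads. The absolute log2 ratio was under 0.5 in 139 members. Farthest apart were Gm14567, a copy of Polr2k, with 15.8 and 34.8 TPM (log2 ratio 0.997, just under 2-fold, 95% interval 0.34 to 1.71), and Rpl10a-ps1, with 12.1 and 24.6 TPM (0.89, 0.61 to 1.17), both named after their values were seen. The intervals cover counting error only.

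The kallisto-format tables were less even between the animals for the same members. The same rule on estimated counts called 24 members higher in replicate 2 and 1 higher in replicate 1, against a background of 0.848% and 0.504% over 22042 genes. The 24 included the 5 identical Rpl35a copies and the 2 identical Rpl27 copies. Copies of identical sequence had equal counts, so they are not separate calls. Rps23-ps1 had 4.25 estimated counts in replicate 1 and 1165 in replicate 2, while its expected counts were 3087 and 2774. Gm10123 had 0 and 439 estimated counts against 3416 and 3335 expected, and Gm10163, a copy of Rpl21, 3.10 and 374 against 893 and 803. Of 58 members with fewer than 3 estimated counts in replicate 1, 11 were at 10 TPM or more in replicate 2, and 0 showed the reverse; among protein-coding genes 1 and 0 did. The 1 member higher in replicate 1 was Gm15387, a copy of Hmgb1, with 109.7 estimated counts and then practically 0, against 1117 and 1014 expected counts. The difference between animals in these members was therefore present in 1 of the 2 quantifications only, and was not found in the other.

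**Figure D5:**
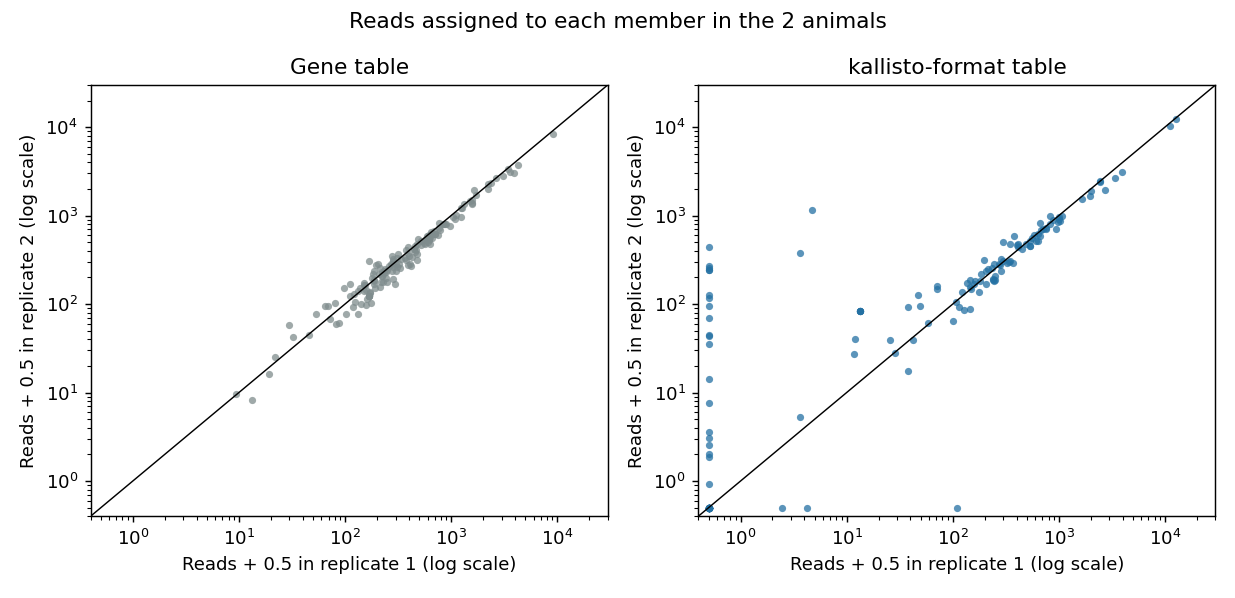
Reads assigned to each of the 156 members in replicate 2 (y axis) against replicate 1 (x axis), with 0.5 added, on log scales, for the expected counts of the gene table and the estimated counts of the kallisto-format table; the line marks equal reads. The members follow the line on the left, and on the right a column of members with 0 reads in replicate 1 reaches up to 439 reads in replicate 2.

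Position in the genome separated members from the rest only in part. The same strand as an overlapping protein-coding gene held 23 members (14.7%) and 7.92% of the other processed pseudogenes, and the opposite strand 14.1% and 13.8%. Overlap with an exon of such a gene was found in 2 of the 23, Gm3226 and Gm43580. In the 23 the count lower in the kallisto-format table was 7 (30.4%), against 56 of the other 133 (42.1%). Unspliced RNA of a host gene can be counted for a pseudogene in its intron, and its part in these levels was not tested.

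Near the threshold the members just inside were Gm43110 (10.07 and 15.04 TPM), Gm11478 (12.8 and 10.3) and Gm7334 (11.7 and 10.5). Those just outside were Gm8741 (13.3 and 9.94 TPM), Gm9770 (9.88 and 11.6) and Gm11826 (12.1 and 9.80). No gap separates the 2 sides.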

How the data were processed

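Total RNA libraries of 2 cortices of 1 group were used. The authors deposited expected counts, TPM and credibility bounds per gene (RSEM format), and estimated counts and TPM per transcript (kallisto format), per the file headers; a deposited text description names mm10 and the annotation M21. The sources used here do not give program versions, aligner or filters. Deposited TPM are shares over all entries, and the effective length in the gene tables is the length minus 100 bases. Estimated counts and TPM were summed here per gene. The members and lists were chosen with earlier results of these data known.

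Expected and estimated counts were rounded to whole numbers only for the counting rule, with 0.5 reads added and TMM scaling (edgeR 4.0.16; DESeq2 1.42.0 size factors as an alternative). Parents came from blastn 2.17.0 (megablast, word size 16, E-value 1e-10, plus strand) against protein-coding GENCODE M21 transcripts of other genes that do not overlap the pseudogene, ties going to the gene with more exons. Shared windows are exact 100-base matches in transcripts of another gene. The counting rule, parent search and window search were tested on simulated data or by direct search. There being 1 group, no p-value was computed. Named genes were the 10 highest members, the 5 highest and 5 lowest ratios, up to 5 members of each of the 3 largest families, the 5 highest with at most 5% shared windows, those without a parent, 3 on each side of the threshold, and their parents; others are said to be chosen after their values were seen or are examples of a count. Gene-table transcript files were not used.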

Additional observations from a re-analysis of the deposited data

How the results depend on the processing

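The list of members depends on the table: 95 processed pseudogenes qualified by the kallisto-format tables. With those chosen, 2 were lower and 24 higher in the kallisto-format table, and the median log2 ratio was 0.19 in place of −1.13. Leaving out 1 replicate gave 66 to 84 lower members, 3 to 5 higher ones and medians of −1.61 to −0.64. Between the animals, estimated counts in place of expected counts called 24 and 1 members in place of 0 and 0; the cause was not tested. Windows of 50 and 75 bases gave medians of 90.2% and 83.6% shared, as shorter windows must. Overlap with an exon of a host gene left 2 members. A TPM minimum of 5 gave 215 members and 20 gave 105; chosen after seeing the data, full lengths gave 155 and a lower credibility bound of 10 gave 115. Pseudocount, centring, scaling, a 4-fold limit and stricter matches to parents kept the directions. No paired analysis was possible because there is 1 group. Depth limits members with few reads, down to 7.77 expected counts.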

Other observations

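The kallisto-format tables also held processed pseudogenes at 10 TPM or more in both libraries that the gene tables put below that level. There were 25, and 9 of them had 0 expected counts in both libraries. The following were named after their values were seen. Gm19220 had 948 and 2048 TPM from 14618 and 35108 estimated counts and 0 expected counts in both, no parent by the rule used, and no 100-base window in common with another gene. Gm38356 had 90.1 and 101.2 TPM and Gm42857 45.8 and 91.4, each with 0 expected counts. The best protein-coding match of 8 of the 25 was a vomeronasal or olfactory receptor gene (Vmn2r or Olfr), families that serve chemosensation in the nose; Gm38356, Gm45105 and Gm48836 matched Vmn2r53. All 25 had at least 50 estimated counts in both libraries.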
